A study of Mus musculus with 97 samples.

Results

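Mtch2 encodes mitochondrial carrier homolog 2, and it was 1 of the 19962 genes probed in captured regions of mouse brain. It was picked by name and is described over all 12 groups of genotype, treatment and brain region. The values that led to the choice were its own counts, which were known to be the highest of most libraries and to differ between the groups. Its levels and differences are therefore given as a description, with errors and no test.

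MTCH2 is a diverged member of the SLC25 family of mitochondrial carriers that sits in the outer rather than the inner mitochondrial membrane. It acts as a receptor for truncated BID, the BH3-only protein that carries a death receptor signal to mitochondria, and as an insertase that places tail-anchored proteins into the outer membrane. It also takes part in lipid metabolism and mitochondrial fusion, and mice that lack it in forebrain neurons have been described with altered hippocampal function. MTCH1 is its paralogue.

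The mouse gene lies on chromosome 2, from 90847090 to 90866810 in GRCm38.p6, as a protein-coding gene with 5 curated RefSeq transcripts. The probe sequence that reports it was not used here, so the exon that the probe binds is not given. The sequence below is the RefSeq promoter window of Mtch2, 250 bases before and 50 after an annotated start site, on the + strand of chr2:90846905-90847204. It is shown because it is the stretch against which the genes that varied with Mtch2 were compared. Capitals mark a match to GCGCA, any base and GCGC in a row, the motif of NRF1, a factor known for its sites at promoters of nuclear genes with mitochondrial functions.
Mtch2: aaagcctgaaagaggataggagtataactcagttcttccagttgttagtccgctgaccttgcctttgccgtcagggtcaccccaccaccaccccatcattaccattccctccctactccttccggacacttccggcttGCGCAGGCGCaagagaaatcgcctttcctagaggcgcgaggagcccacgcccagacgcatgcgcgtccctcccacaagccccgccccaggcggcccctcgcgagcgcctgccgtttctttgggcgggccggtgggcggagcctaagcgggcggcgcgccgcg
The match covers bases 139 to 148 of the window, which is position 90847043 to 90847052 of the chromosome. The window has a GC content of 64.7%, against a median of 52.7% over all 32851 promoter windows of the same table.

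The mice were older animals carrying human APOE3 or human APOE4 in place of the mouse gene, and the study asked how the allele bears on the response of the brain to combined chemotherapy. All groups received intraperitoneal injections, 2 per week for 2 weeks. Vehicle was 50% DMSO and 50% PBS. The regimen called DD was doxorubicin, an anthracycline, at 3 mg/kg per week with docetaxel, a taxane, at 10 mg/kg per week, and DC was doxorubicin at 3 mg/kg per week with cyclophosphamide, an alkylating agent, at 40 mg/kg per week. Regions of cortex and hippocampus were chosen on sections of 8 µm and read with the NanoString GeoMx Whole Transcriptome Atlas, in which light releases the tags of gene-specific probes for sequencing. Each group held 8 libraries, with 9 in APOE3 DD cortex, and a library is 1 captured region. The labels tie no region to an animal, so some regions of a group may share an animal, and the spread and SEs given here may be too small. Replicate numbers used here follow the order of the libraries and are not in the labels. Equal numbers in different groups therefore do not mark a pair. APOE3 and APOE4 libraries were collected on separate plates, so genotype and plate cannot be told apart.

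The sum of all counts in a library was between 21568 and 1850582. Its median was 30579 for APOE3 (49 libraries) and 61380 for APOE4 (48 libraries). The smallest value of a library was 1 in 94 of the 97 libraries and higher in the other 3, and the combined negative probe, which matches no mouse transcript, had a median of 1.27 in APOE3 and 2.68 in APOE4. Most genes were near it: over all 19962 genes the median level, as a multiple of the negative probe, was 0.936 in cortex and 0.912 in hippocampus. The tissue labels could not be checked from transcripts, because 0 of 45 markers of cortical and hippocampal neurons, inhibitory neurons, astrocytes, oligodendrocytes, microglia and endothelial cells reached 2 times the negative probe in either region. The highest of them in cortex was Slc17a7, which loads glutamate into synaptic vesicles, at 1.85 times. In bulk regions of this kind, fewer cells of a type and less RNA per cell cannot be told apart.

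Against that background the Mtch2 probe was bright. Libraries held between 195 and 3951 counts of it, and the median library held 960. As a multiple of the negative probe the median was 358 in cortex and 644 in hippocampus. Next in cortex came the predicted genes Gm10265 at 230 times and Gm52523 at 131 times, and Tysnd1, a peroxisomal protease, at 88.8 times. Next in hippocampus were the predicted genes Gm33888 at 133 times, Gm46840 at 110 times and Gm10265 at 73.1 times. Probes differ in how well they bind, so these multiples compare signals and not transcript numbers.

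Mtch2 had the highest count of all genes in 90 of the 97 libraries. These were all 48 hippocampus libraries and 42 of the 49 cortex libraries. In the 7 others it came after Gm10265. All 7 were from treated cortex: APOE4 DC replicates 1, 3 and 4, APOE4 DD replicate 7, and APOE3 DC replicates 1, 2 and 3. The closest of these was APOE4 DC cortex 3, with 867 counts of Mtch2 and 924 of Gm10265, and the widest was APOE3 DC cortex 2, with 195 and 350.

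Levels over all 12 groups are given on 2 scales. The first is the share of Mtch2 in the summed counts of the 58 genes that passed a low-count filter over both regions. The second is the log2 CPM value (counts relative to the library size) over those 58 genes after TMM scaling. TMM multiplies each library size by a factor taken from the log ratios of its genes to a reference library, with extreme genes left out. A dominant gene can thereby reach values near 20, and the value is not a fraction of the counts. The share says how much of the usable signal of a library was Mtch2.

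In cortex of vehicle-treated APOE3 mice the share of Mtch2 was 34.6% ± 7.07 (SD, n = 8). The lowest library had 25.6%, the median was 33.7% and the highest library had 46.7%. On the log2 CPM scale this group had 18.44 ± 0.42 (SD, n = 8), with a lowest value of 17.78 and a highest of 19.06. It was the highest of the 6 cortex groups on both scales.

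APOE3 cortex after DD had a Mtch2 share of 22.8% ± 4.26 (SD, n = 9), from 17.3% through a median of 22.0% to 28.6%. APOE3 cortex after DC had 18.8% ± 8.74 (SD, n = 8), from 10.5% through 16.7% to 34.7%. Their log2 CPM were 17.56 ± 0.38 (SD, n = 9) and 17.07 ± 0.84 (SD, n = 8). The DD range of shares overlapped the vehicle range only between 25.6% and 28.6%. The DC group was split: replicates 7 and 8 had 29.5% and 34.7%, inside the vehicle range, and the 6 others lay between 10.5% and 17.9%, below every vehicle library.

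In APOE4 cortex the Mtch2 share was 26.6% ± 5.76 (SD, n = 8) after vehicle, from 19.9% through a median of 25.6% to 37.3%. After DD it was 18.5% ± 3.03 (SD, n = 8), from 13.4% through 19.2% to 21.5%. After DC it was 18.4% ± 4.55 (SD, n = 8), from 12.3% through 19.6% to 23.7%. All libraries of both treated groups lay below the vehicle mean, and the treated groups overlapped each other almost fully. On the log2 CPM scale the groups had 17.75 ± 0.35, 17.08 ± 0.30 and 17.08 ± 0.41 (SD, n = 8 each).

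In hippocampus of vehicle-treated APOE3 mice Mtch2 made up 57.4% ± 6.26 (SD, n = 8) of the counts of the 58 genes. The lowest library had 52.2%, the median was 55.6% and the highest had 71.9%. In every library of this group Mtch2 outweighed the other 57 genes together. Its log2 CPM was 20.01 ± 0.38 (SD, n = 8), from 19.66 to 20.84, the highest mean of the 12 groups.

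APOE3 hippocampus after DD had a share of 45.9% ± 7.79 (SD, n = 8), from 32.6% through a median of 46.0% to 58.1%, and a log2 CPM of 19.19 ± 0.55. APOE3 hippocampus after DC had a share of 38.8% ± 9.23 (SD, n = 8), from 27.9% through 36.2% to 56.5%, and a log2 CPM of 18.70 ± 0.63. In the DD group 1 library, replicate 5, lay above the lowest vehicle library, and in the DC group this was replicate 7 alone. The other libraries of both treated groups had a smaller Mtch2 share than any vehicle library.

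In APOE4 hippocampus the share was 43.5% ± 8.95 (SD, n = 8) after vehicle, from 33.6% through a median of 44.0% to 55.7%. After DD it was 39.9% ± 4.34 (SD, n = 8), from 33.4% through 41.1% to 45.8%. After DC it was 32.9% ± 10.7 (SD, n = 8), from 10.95% through 35.7% to 42.2%. The 3 ranges overlapped widely, and the DC group had 2 libraries, replicates 2 and 8, far below the rest, at 10.95% and 22.9%. The log2 CPM were 18.93 ± 0.37, 18.82 ± 0.32 and 17.87 ± 1.16 (SD, n = 8 each), and the last was the widest spread of any group.

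**Figure D1:**
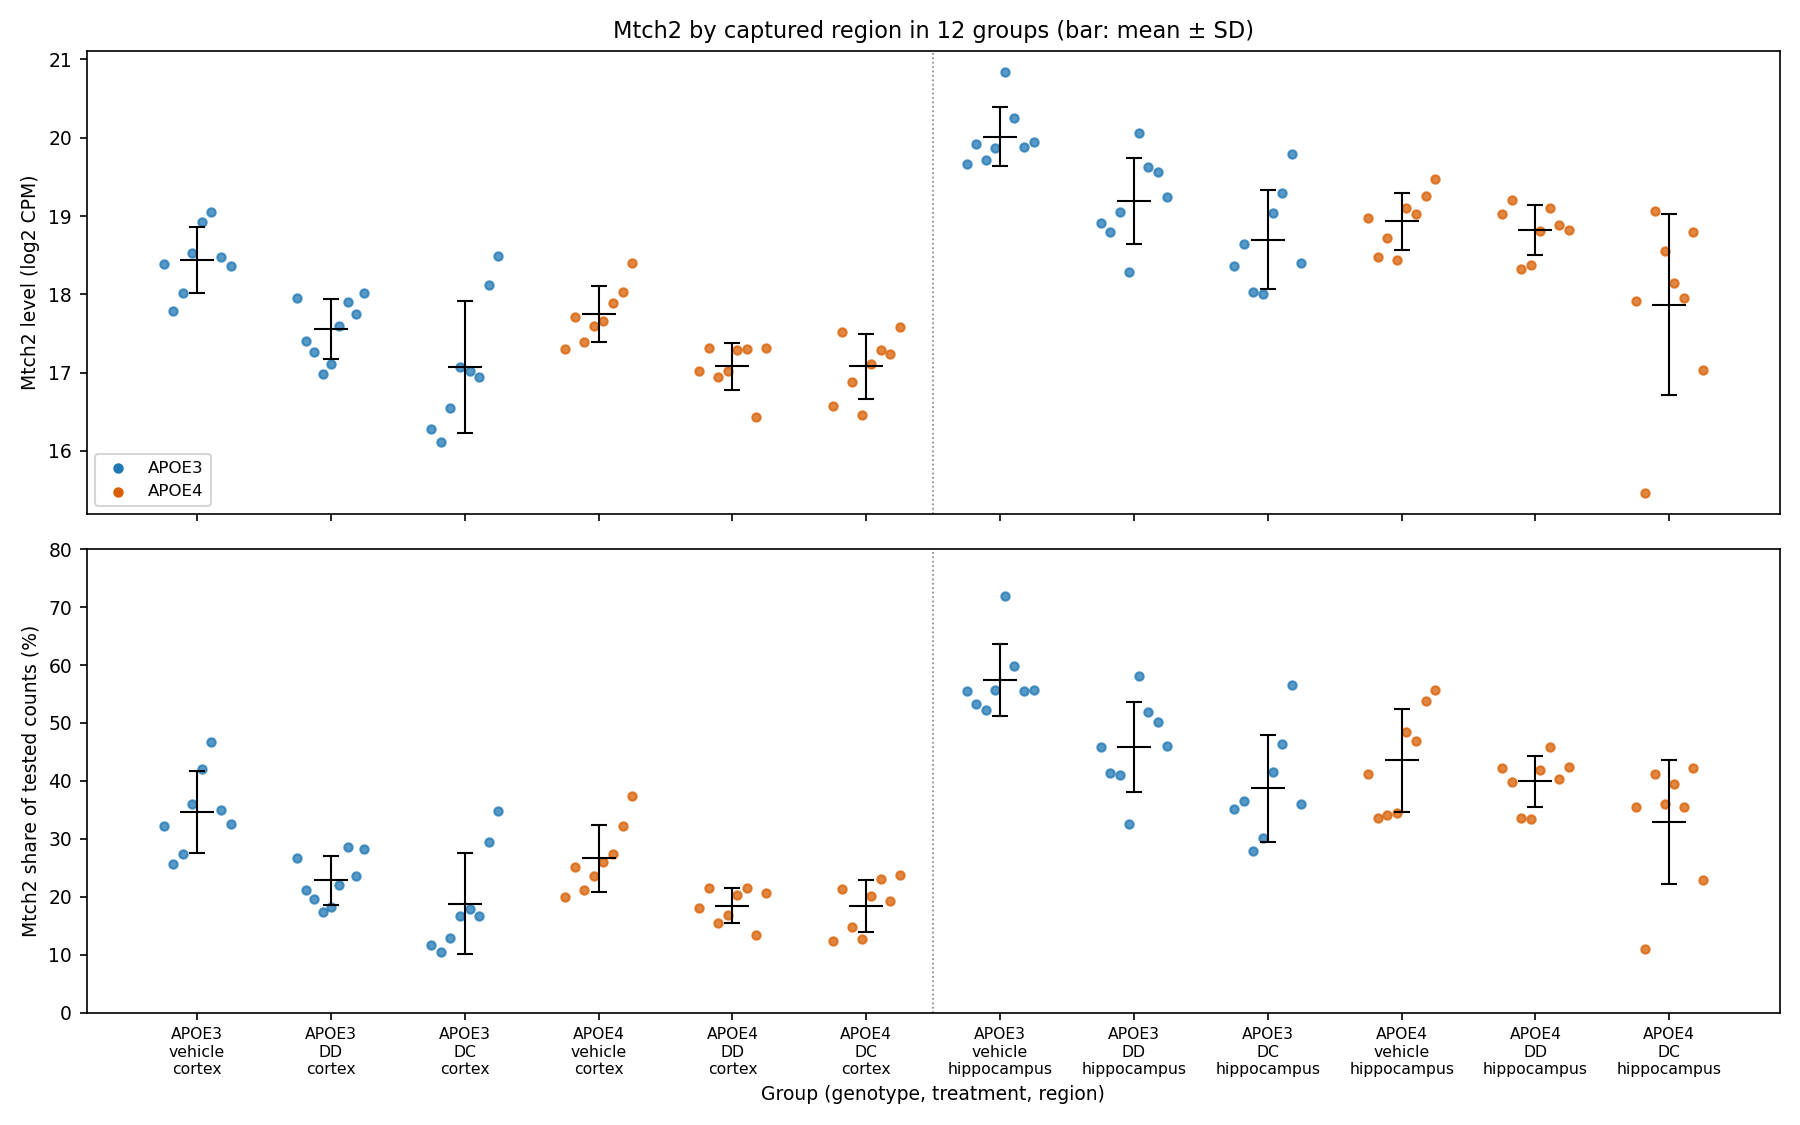
Each point is 1 captured region, placed by group on the x axis, with log2 CPM of Mtch2 in the upper panel and its share (%) of the counts of the tested genes in the lower panel, and the bars give mean ± SD. The 8 APOE3 vehicle hippocampus libraries lie at 52.2% or more, and 1 APOE4 DC hippocampus library lies at 10.95%.

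The order of the 12 group means on the log2 CPM scale began with APOE3 vehicle hippocampus, APOE3 DD hippocampus, APOE4 vehicle hippocampus, APOE4 DD hippocampus and APOE3 DC hippocampus. It went on with APOE3 vehicle cortex, APOE4 DC hippocampus, APOE4 vehicle cortex, APOE3 DD cortex, APOE4 DC cortex, APOE4 DD cortex and APOE3 DC cortex. Hippocampus groups took the first 5 places, and a cortex group, APOE3 vehicle, came before the remaining hippocampus group, APOE4 DC. Leaving out the 13 libraries with a negative probe of 5 or more left 2 libraries in APOE4 DC hippocampus. Their mean minus the mean of the 12 groups was 0.67, against -0.34 for the whole group. The value of APOE3 vehicle cortex was then 0.14. With upper-quartile scaling and all libraries, APOE4 DC hippocampus had -0.0046 and APOE3 vehicle cortex 0.139. What set the place of APOE4 DC hippocampus was not tested. The ranges of all 11 neighbouring pairs overlapped. The gap between neighbours was larger than their pooled SD for 2 pairs, at 1.74 times between the first and the second group and 1.20 times between APOE3 DD cortex and APOE4 DC cortex. The other 9 gaps were at most 0.663 times the pooled SD, so those neighbours did not differ beyond their spread.

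**Figure D2:**
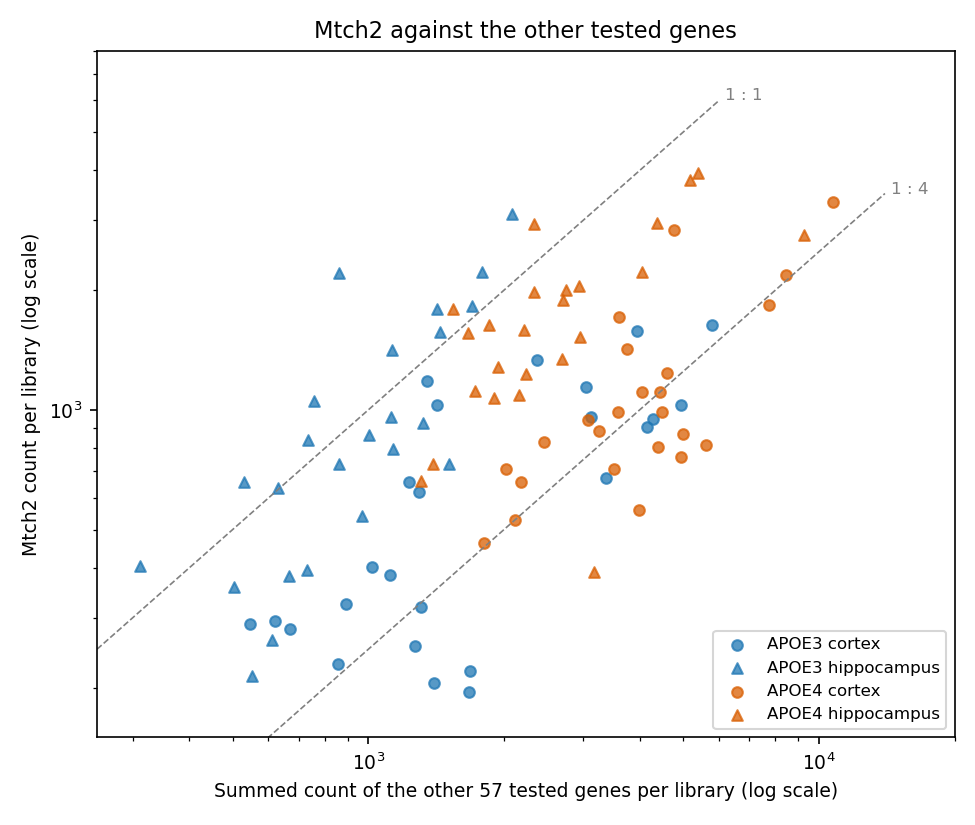
Each point is 1 library, with the summed count of the other 57 tested genes on the x axis and the Mtch2 count on the y axis, both on log scales, and dashed lines mark ratios of 1 to 1 and 1 to 4. The 8 APOE3 vehicle hippocampus libraries lie above the 1 to 1 line, and 1 hippocampus library, APOE4 DC replicate 2 with a share of 10.95%, lies below the 1 to 4 line.

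Mtch2 was higher in hippocampus than in cortex in all 6 pairs of groups with TMM scaling. In the edgeR fit of all 12 groups the log2 difference in Mtch2 was 1.57 (SE 0.27) in APOE3 vehicle libraries, 1.69 (SE 0.27) in APOE3 DD and 1.55 (SE 0.28) in APOE3 DC. It was 1.19 (SE 0.27) in APOE4 vehicle, 1.75 (SE 0.28) in APOE4 DD and 1.04 (SE 0.27) in APOE4 DC. These correspond to folds from 2.06 to 3.36. All 8 hippocampus libraries lay above the cortex mean of log2 CPM in 5 of the 6 comparisons, and 6 of 8 did so in APOE4 DC. The ranges of the share did not overlap in APOE3 vehicle, APOE3 DD and APOE4 DD, and overlapped in the other 3. In APOE3 DD the difference was 1.13 rather than 1.69 without cortex replicate 5.

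The other genes of the denominator differed between the regions as well. The summed count of the other 57 genes had a median of 3328.5 in APOE4 vehicle cortex and 1759.5 in APOE4 vehicle hippocampus, while the Mtch2 count had medians of 1091 and 1597.5. In APOE3 vehicle the other genes had medians of 1319.5 in cortex and 1274 in hippocampus, and Mtch2 had 844.5 and 1680. In APOE3 DD the other genes had medians of 3120 in cortex and 1128 in hippocampus, and Mtch2 had 949 and 861.5, so there the raw Mtch2 count was not higher in hippocampus. In APOE3 DC the other genes had 1533 and 638.5, and Mtch2 had 267.5 and 389.5. The median of the other genes was lower in hippocampus in all 6 pairs of groups, and that of Mtch2 was higher in 5 of the 6. These differences in counts were not tested.

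Both regimens went with a lower Mtch2 level than vehicle in cortex, relative to the other tested genes. The edgeR fit of the 6 cortex groups gave a log2 difference of -0.87 (SE 0.22) for DD against vehicle in APOE3, a fold of 1.82, and all 9 DD libraries lay below the vehicle mean. DC against vehicle in APOE3 cortex gave -1.18 (SE 0.23), a fold of 2.26, with 7 of 8 libraries below the vehicle mean. In APOE4 cortex DD gave -0.71 (SE 0.22) and DC -0.70 (SE 0.22), folds of 1.63 each, with 8 of 8 libraries of both regimens below the vehicle mean. In each of these 4 comparisons the ranges of log2 CPM still overlapped.

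In APOE3 hippocampus the fit of the 6 hippocampus groups gave -0.74 (SE 0.28) for DD against vehicle, a fold of 1.68, with 7 of 8 libraries below the vehicle mean. DC against vehicle gave -1.11 (SE 0.28), a fold of 2.16, with 8 of 8 below. In APOE4 hippocampus the differences were -0.31 (SE 0.28) for DD, with 5 of 8 libraries below the vehicle mean, and -0.73 (SE 0.28) for DC, with 7 of 8 below. The DC value was -0.44 (SE 0.37) without libraries with a negative probe of 5 or more, which leaves 2 DC libraries, -0.42 (SE 0.25) without the 3 libraries whose smallest value was above 1, and -0.35 with the negative probe subtracted. The DD difference in APOE4 hippocampus was close to its SE. The median Mtch2 count was 1680 after vehicle, 861.5 after DD and 389.5 after DC in APOE3 hippocampus. In APOE4 hippocampus it was 1597.5, 1782 and 1637.5, so the raw count was not lower after treatment. The other 57 genes had median summed counts of 1274, 1128 and 638.5 in APOE3 and 1759.5, 2509.5 and 3049.5 in APOE4. Whether the treatment differences in APOE3 and APOE4 differ from each other was not tested.

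The 2 regimens were also compared with each other. With TMM scaling DC against DD gave -0.31 (SE 0.22) in APOE3 cortex, 0.00 (SE 0.22) in APOE4 cortex, -0.37 (SE 0.28) in APOE3 hippocampus and -0.42 (SE 0.28) in APOE4 hippocampus. Ranges overlapped in all 4. In APOE3 the value was -0.59 (SE 0.21) without DC cortex replicate 8, -0.49 (SE 0.22) without DC cortex replicate 7 and -0.56 (SE 0.28) without DC hippocampus replicate 7. In APOE4 hippocampus it was -0.27 (SE 0.23) without DC replicate 2, and -0.02 once all 13 libraries with a negative probe of at least 5 were removed. As log2 multiples of the negative probe, DC against DD was -0.98 (SE 0.31) in APOE3 cortex and -1.06 (SE 0.27) in APOE3 hippocampus, larger than with TMM scaling. This scale does not use the other tested genes, whose median summed count was also lower after DC. It was 1533 after DC against 3120 after DD in APOE3 cortex, and 638.5 against 1128 in APOE3 hippocampus. The median negative probe hardly differed, at 1.41 against 1.45 in cortex and 1.26 against 1.33 in hippocampus. The part of the lower counts of the other tested genes in these differences was not tested. The comparisons of each regimen with vehicle share the vehicle libraries, so they are not independent of each other.

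The fitted level of Mtch2, relative to the other tested genes, was lower in APOE4 than in APOE3 libraries in all 6 pairs of groups. Collection plate changed together with genotype. The log2 difference after vehicle was -0.61 (SE 0.22) in cortex and -0.85 (SE 0.28) in hippocampus, with 8 of 8 APOE4 libraries below the APOE3 mean in both. In vehicle hippocampus the log2 CPM ranges did not overlap, since the highest APOE4 library had 19.48 and the lowest APOE3 library 19.66. The shares of these groups overlapped, between 52.2% and 55.7%. After DD the difference was -0.45 (SE 0.22) in cortex and -0.41 (SE 0.28) in hippocampus, and after DC it was -0.14 (SE 0.22) in cortex and -0.46 (SE 0.28) in hippocampus. The DC hippocampus value was -0.09 without libraries with a negative probe of 5 or more and -0.27 (SE 0.28) without APOE3 replicate 7. In DC cortex 3 of 8 APOE4 libraries lay below the APOE3 mean of log2 CPM, and the means were 17.08 and 17.07, so this pair shows no direction. The median raw Mtch2 count was lower in APOE4 in DD cortex (896 against 949) and vehicle hippocampus (1597.5 against 1680). It was higher in vehicle cortex (1091 against 844.5), DC cortex (875 against 267.5), DD hippocampus (1782 against 861.5) and DC hippocampus (1637.5 against 389.5). The median of the other 57 genes was higher in APOE4 in all 6 pairs, at 3328.5 against 1319.5 in vehicle cortex.

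A level set against the negative probe of the same library does not use the other genes. On this scale the mean log2 multiple was highest in APOE3 vehicle hippocampus, at 10.28 ± 0.74 (SD, n = 8), and lowest in APOE4 DC hippocampus, at 7.05 ± 2.25 (SD, n = 8). The sign was that of the edgeR difference in 19 of the 24 comparisons. In APOE3 the differences of DC from vehicle were -1.64 (SE 0.34) in cortex and -2.01 (SE 0.33) in hippocampus, larger than with TMM scaling. The other tested genes had a median summed count of 638.5 after DC against 1274 after vehicle in APOE3 hippocampus. In APOE3 cortex it was not lower after DC, at 1533 against 1319.5. DD against vehicle in APOE3 was -0.66 (SE 0.36) in cortex and -0.96 (SE 0.31) in hippocampus. The negative probe lay close to the floor of 1 in APOE3, with group medians from 1.11 to 1.45, and it reached 2.88 in APOE3 DD cortex and 2.96 in APOE3 DC cortex. The raw Mtch2 counts of APOE3 vehicle and DD cortex had medians of 844.5 and 949, so the difference of -0.66 between them went with a higher negative probe after DD.

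The 5 comparisons whose sign turned on the negative probe scale were mostly small in both. DC against DD in APOE4 cortex was -0.18 (SE 0.43), and DD against vehicle in APOE4 hippocampus was 0.05 (SE 0.18). APOE4 against APOE3 was 0.27 (SE 0.43) in DC cortex and 0.07 (SE 0.18) in DD hippocampus. The large reversal was hippocampus against cortex in APOE4 DC, at -0.91 (SE 0.88) against 1.04 with TMM scaling. In the other 5 pairs of regions the negative probe scale gave 0.44 to 1.25, smaller than the edgeR values. On that scale only APOE4 DD had regions whose ranges did not overlap.

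**Figure D3:**
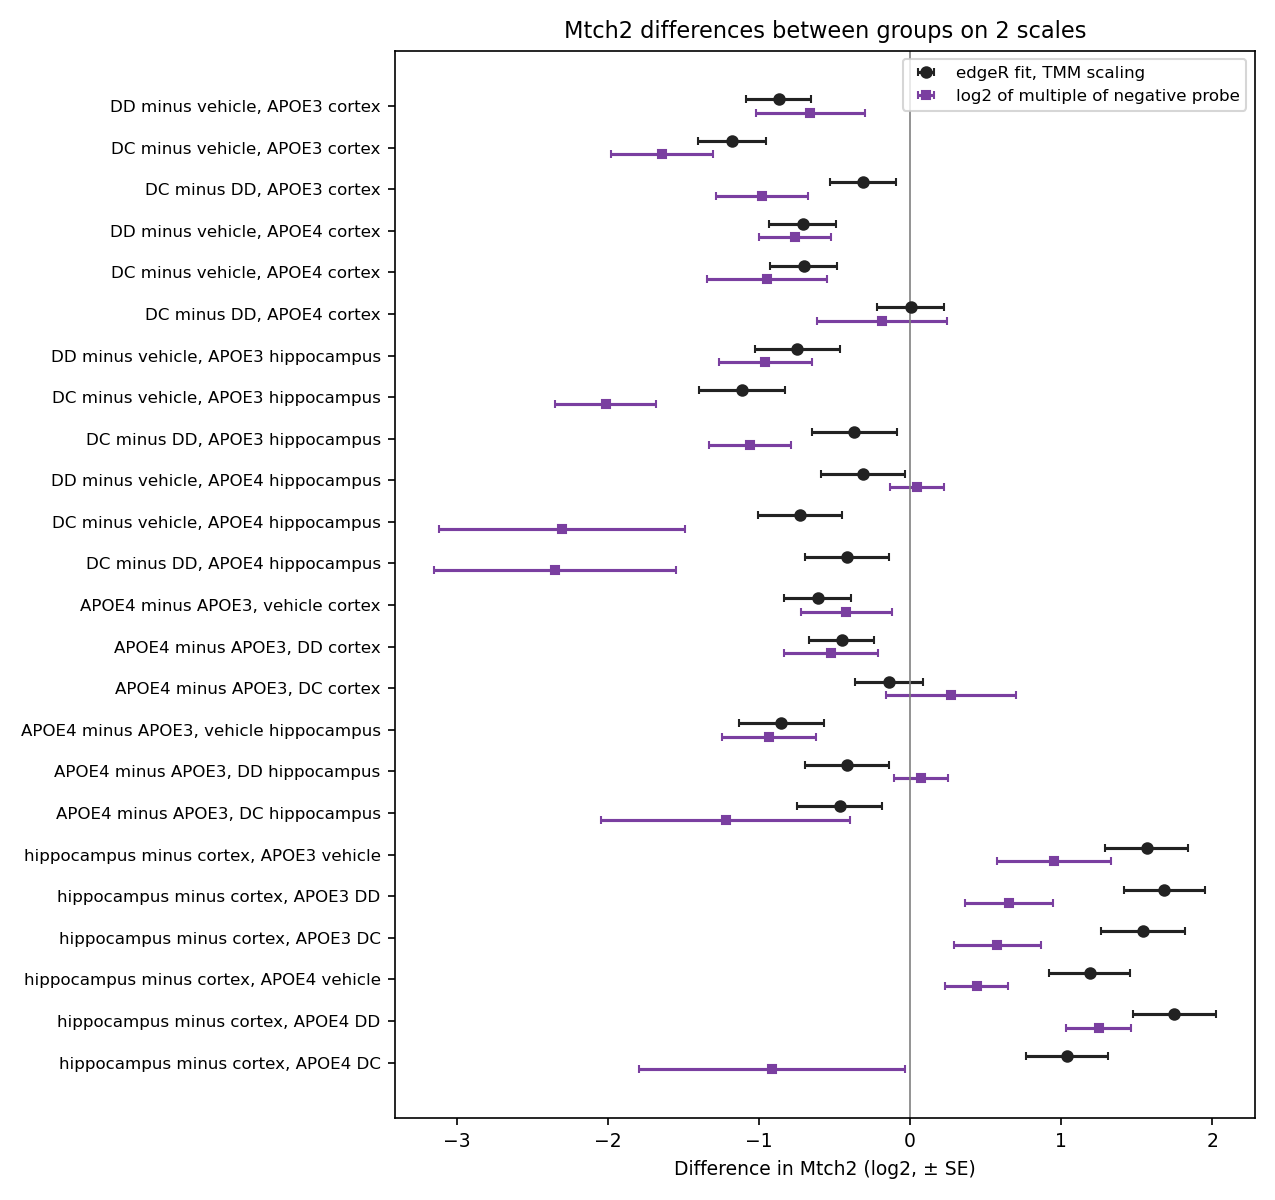
Differences in Mtch2 (log2, x axis) for the 24 comparisons (y axis) are shown with ± SE, as circles for the edgeR fit with TMM scaling and as squares for the log2 multiple of the negative probe. The squares of the 4 comparisons that include APOE4 DC hippocampus have the widest error bars, and hippocampus against cortex in APOE4 DC has a circle at 1.04 and a square at -0.91.

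The APOE4 DC hippocampus group stood apart by its negative probe. It was 5 or more in 6 of its 8 libraries, with a group median of 10.9 and a highest value of 93.1, and 13 of all 97 libraries reached 5. In those 6 libraries Mtch2 had 10.0 to 500 times the negative probe, a share of 10.95% to 42.2% and a log2 CPM of 15.46 to 18.79. In the 2 others it had 656 and 873 times, shares of 36.0% and 41.1%, and a log2 CPM of 18.56 and 19.06. Without all 13 libraries, hippocampus against cortex in APOE4 DC was 1.97 rather than 1.04. The part of the negative probe in the Mtch2 level of this group was not tested.

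Libraries of a group that follow each other in the order of wells on a collection plate form runs. There were 49 of them, 48 with 2 libraries, and the wells of a run were not always adjacent. The SD of Mtch2 log2 CPM was 0.43 between the 2 libraries of a run and 0.50 between the means of runs of a group. Between all libraries of a group it was 0.56. If the 2 libraries of a run were independent, run means would be expected to spread less than the libraries within a run. They spread more, so the libraries of a run may not be independent, which was not tested. With counts summed over runs, the SE of DD against vehicle in APOE3 cortex was 0.27, against 0.22 before. For DC against vehicle in APOE3 hippocampus it was 0.39 against 0.28, and for hippocampus against cortex in APOE3 vehicle 0.46 against 0.27. In APOE3 DC cortex the 2 low libraries at 10.5% and 11.6% were 1 run and the 2 high libraries at 29.5% and 34.7% another. In APOE3 vehicle cortex the 2 highest shares, 42.0% and 46.7%, also came from 1 run, replicates 5 and 6. The labels do not say whether a run is an animal, a section or a slide. Across the 97 libraries, after each group mean was subtracted, Mtch2 log2 CPM had a Pearson correlation of -0.01 with the log2 summed count of the tested genes and -0.32 with the log2 negative probe. These libraries share plates and depth, so the values are a description.

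The likeness of other genes to Mtch2 was measured over the other 57 genes that passed the filter, by the Pearson correlation of log2 CPM. Within groups, over 97 libraries and after subtraction of group means, the 5 highest were Hmga2 (0.58), Ripply2 (0.57), Xrn1 (0.57), Gm33888 (0.52) and Gm46840 (0.47). Hmga2 is a chromatin-binding protein of embryonic tissue, Ripply2 a transcriptional repressor of somite formation and Xrn1 a cytoplasmic exoribonuclease that degrades decapped mRNA. The median over the 57 genes was -0.01. Over the 12 group means the 5 highest were Ripply2 (0.98), Erlin2 (0.94), Gm33888 (0.91), Gm34733 (0.89) and Hmga2 (0.89), where the median of the 57 genes was -0.30. Erlin2 belongs to a complex of the endoplasmic reticulum that marks proteins for degradation. Libraries share depth, plate and scaling factors, so a correlation here carries no test.

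These 7 genes were much dimmer than Mtch2. As a multiple of the negative probe, Ripply2 had 14.1 in cortex and 19.3 in hippocampus, and Hmga2 had 34.6 and 40.9. The within-group correlation of Ripply2 was 0.50 in APOE3 libraries and 0.73 in APOE4 libraries. That of Gm33888 was 0.30 and 0.70, and that of Gm46840 0.23 and 0.65. Gm33888, Gm46840 and Xrn1 spread most in APOE4 DC hippocampus, with log2 CPM SDs of 1.01, 0.97 and 0.68. Hmga2 and Ripply2 spread most in APOE3 DC cortex, with 0.93 and 0.73. Correlations without libraries with a negative probe of 5 or more were not computed, so a few libraries may carry this ranking. Both sets of 5 genes were recovered in full with upper-quartile scaling and with scaling computed without Mtch2.

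**Figure D4:**
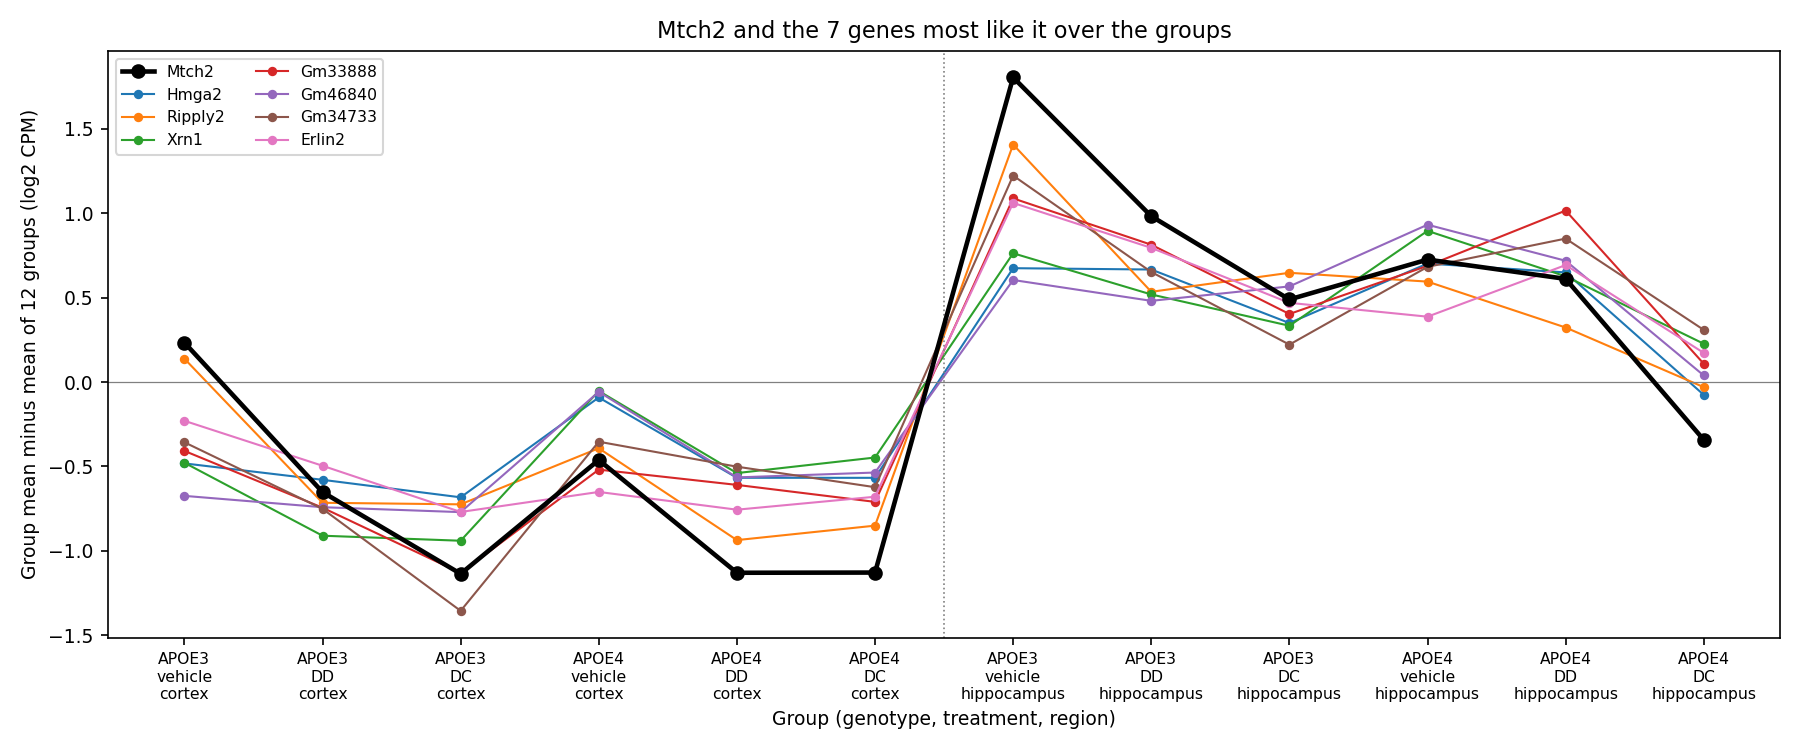
The y axis gives the mean log2 CPM of a gene in a group minus its mean over the 12 groups, and the x axis the groups, for Mtch2 (thick black line) and the 7 genes with the highest correlations. Mtch2 has the largest range, from 1.81 in APOE3 vehicle hippocampus to -1.14 in APOE3 DC cortex.

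The genes that work beside Mtch2 gave almost no usable signal. A list of 73 names held its paralogue Mtch1, the TOM, SAM and metaxin import machinery, VDAC channels, the BCL2 family with Bid, proteins of fusion, fission and transport, other outer membrane proteins and inner membrane SLC25 carriers. Of these, 70 were measured and 0 passed the low-count filter. Their median multiple of the negative probe was 0.938 in cortex and 0.919 in hippocampus, next to 0.936 and 0.912 for all genes. Mtch1 had 1.03 times in cortex and 0.833 times in hippocampus. Tomm6, a small subunit of the import channel, had 1.96 times in cortex, and Slc25a11, the oxoglutarate and malate carrier of the inner membrane, had 2.18 times in hippocampus, the only one of the 70 above 2 in either region.

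Without the low-count filter, edgeR's quasi-likelihood test with Benjamini-Hochberg adjustment over 19962 genes called 0 of the 70 genes in 22 of the 24 comparisons, where 0 to 7 of them had an unadjusted p under 0.05. The share of all genes with an unadjusted p under 0.05 was not computed, so those numbers are not read further. DESeq2, which was run with the filter, had none of the 70 to test and called 0. Of all genes, the same test called 0.0301% for DD against vehicle, 0.0301% for DC against vehicle and 0.0301% for DC against DD in APOE3 cortex. In APOE4 cortex it called 0.0651%, 0.0802% and 0.13% in the same order. In APOE3 hippocampus it called 0%, 0.00501% and 0.00501%, and in APOE4 hippocampus 0.341%, 0.932% and 0.351%. For APOE4 against APOE3 it called 0.0301% after vehicle, 0.0601% after DD and 0.0351% after DC in cortex, and 0.16%, 0% and 0.02% in hippocampus. For hippocampus against cortex it called 0.015% in APOE3 vehicle, 0.0601% in APOE3 DD and 0.0301% in APOE3 DC, and 0.461%, 0.105% and 0.521% in the APOE4 groups. A count of 0 among 70 genes is near those shares. In data simulated after DC against vehicle in APOE3, without the filter, the test recovered 3.3% of genes changed 2-fold in cortex and 4.12% in hippocampus. Of those changed 4-fold it recovered 46.8% and 45.6%. The changed genes of the simulation were drawn from the brighter genes, and all genes were given the same fixed spread. Most listed genes lay near the negative probe, so these percentages do not give the recovery to expect for them.

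The remaining 2 comparisons each called 1 gene of the list, Slc25a11, as lower. In APOE4 hippocampus its log2 difference was -1.93 (SE 0.28, adjusted p = 6.92e-07) for DC against vehicle and -1.65 (SE 0.27, adjusted p = 9.62e-05) for DC against DD, by edgeR's quasi-likelihood test. Its counts were few: the median was 5.5 after vehicle, from 4 to 12, 5.5 after DD, from 3 to 14, and 9.5 after DC, from 5 to 43. The counts themselves were thus not lower after DC. Without libraries with a negative probe of 5 or more, which leaves 2 DC libraries, the log2 difference was 0.14 (SE 0.58, adjusted p = 0.990) against vehicle and 0.42 (SE 0.59, adjusted p = 0.991) against DD, so both calls were lost and the direction turned.

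The promoter windows were compared by 2 motifs, each searched on both strands. The NRF1 motif, GCGCA followed by any base and GCGC, was found 1 time in the Mtch2 window printed above and in 4.60% of all 32851 windows. It was found in 5 of the 80 windows of the listed genes, 6.25%, in 0 of the 2 windows of Mtch1 and in 0 of the 6 windows of the genes most like Mtch2. GGGCGG, the GC box, was found 4 times in the Mtch2 window, and in 35.7% of all windows. It was found in 63 of the 80 windows of the listed genes, 78.75%. Both windows of Mtch1 and 3 of the 6 windows of the genes most like Mtch2 held it as well. Windows were given for 59 of the 70 listed genes and 6 of the 7 genes most like Mtch2. A match is a run of letters and was not tested as a binding site.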

How the data were processed

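Expected counts per gene target, not scaled to depth, were deposited by the authors in 1 table of 97 libraries. The submitters' processing notes name the genome build mm10. Which software counted the tags is not given in the sources that were used. Values that were not whole, in 4 lines of the table, were rounded. The combined negative probe stayed out of library sizes, and the table held 0 columns of other samples. Low-count filtering with filterByExpr (minimum count 10) left 57 genes in cortex, 38 in hippocampus and 58 in both regions fitted together. edgeR 4.0.16 in R 4.3.3, with TMM scaling and the quasi-likelihood fit, gave log2 differences with SE, from 6 groups per region or from all 12 for region differences. Log2 CPM used a prior count of 2, and calls a threshold of 0.05 on Benjamini-Hochberg adjusted p-values. Libraries above or below a group mean were counted on log2 CPM over the 58 genes, also for differences fitted within a region. DESeq2 1.42.0 was an alternative. The scripts were tested on simulated data.

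Mtch2, the gene lists and the comparisons were chosen with earlier results of these data known. Named genes are Mtch2, Mtch1, listed genes above 2 times the negative probe, the 5 genes with the highest correlation on each measure of likeness, and the 3 brightest after Mtch2 per region. Tomm6 and Slc17a7 were named after their values were seen. Precision is limited by counts of 195 to 3951 for Mtch2, and SEs measure only the spread between captured regions. The edgeR fits share that spread over all their groups. Their SEs may therefore be too small for comparisons with APOE4 DC hippocampus, which had the widest spread. Runs of wells were read from the order of the libraries and the plate in their names.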

Additional observations from a re-analysis of the deposited data

Results flagged for a closer look

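In each group of 8 or 9 libraries the highest and the lowest library were set against the others on 4 measures of Mtch2, which made 48 pairs of group and measure. A library stood apart where its gap to the nearest other, divided by the range of the group, passed Dixon's critical value, which chance passes in about 5% of groups. This was the case in 6 of the 48 pairs. APOE4 DD cortex 7 had the lowest log2 CPM of its group, at 16.44, with the nearest at 16.94 and a gap of 0.579 of the range, and it is 1 of the 7 libraries in which Gm10265 exceeded Mtch2. APOE3 vehicle hippocampus 5 had the highest share of any library, at 71.9%, with the nearest at 59.8% (0.615 of the range).

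By raw Mtch2 count, APOE4 DD cortex 8 had 2189, with the nearest at 1108 (0.626 of the range). APOE4 DC cortex 8 had 3331, with the nearest at 1836 (0.54 of the range). APOE3 DD hippocampus 6 had 1827, with the nearest at 1052 (0.65 of the range). These 3 libraries were not apart from their groups by share. By multiple of the negative probe, APOE3 DC hippocampus 6 had 654 times, with the nearest at 396 times (0.534 of the range).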

How the results depend on the processing

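Levels are given here as the group mean of log2 CPM minus the mean of the 12 groups. The alternatives were upper-quartile scaling, scaling without Mtch2, the library size over all genes, no low-count filter, 1 or the negative probe subtracted, runs of wells summed, a prior count of 0.5, DESeq2, and left-out libraries. Of the 24 differences, 19 kept their sign in all 12 settings, lowest and highest leave-one-out values included. The exceptions were DC against DD in APOE4 cortex (4 of 12 kept it) and in APOE4 hippocampus (10), DD against vehicle in APOE4 hippocampus (11), and APOE4 against APOE3 in DC cortex (8) and DD hippocampus (10). With the library size over all genes, levels were -0.088 in APOE3 DD cortex, 0.17 in APOE4 vehicle cortex, which turned its sign, -0.55 in APOE4 DD cortex, -0.38 in APOE3 DC hippocampus and -1.50 in APOE4 DC hippocampus. In that setting DC in APOE3 hippocampus differed by -1.93 from vehicle and -0.97 from DD, and hippocampus from cortex by 0.91, 0.68 and 0.64 in APOE3 vehicle, DD and DC and 0.49, 1.19 and 0.068 in APOE4. Without the low-count filter, levels were 0.67 in APOE3 vehicle cortex, -0.058 in APOE3 DD cortex, 0.17 in APOE4 vehicle cortex, which turned its sign, -0.57 in APOE4 DD cortex, -0.37 in APOE3 DC hippocampus and -1.64 in APOE4 DC hippocampus. In that setting DC against DD was -1.10 in APOE3 cortex and -1.03 in APOE3 hippocampus, DC against vehicle -2.07 in APOE3 hippocampus, and APOE4 against APOE3 -0.20 in vehicle cortex and 0.65 in DC cortex. Hippocampus against cortex was then 0.98, 0.67 and 0.68 in APOE3 and 0.51, 1.16 and 0.057 in APOE4, and 2 list calls were made in place of 0. With both settings the genes near the floor of 1 enter the library size. Upper-quartile scaling gave -0.45 for APOE4 against APOE3 in vehicle hippocampus, and 1 subtracted gave 1.30 for hippocampus against cortex in APOE4 DD. Summed runs gave -0.70 for the level of APOE4 DD cortex and 1.16 and 1.37 for the region difference in APOE3 DD and APOE4 DD. Without libraries with a negative probe of 5 or more, the region difference in APOE4 DC was 1.97. Left-out libraries gave 1.13 to 1.75 for the region difference in APOE3 DD, with the lowest without cortex replicate 5; the cause of these moves was not tested. Scaling without Mtch2 moved the region difference in APOE4 vehicle from 1.19 to 1.49, more than its SE of 0.27. The removal of 3 libraries whose lowest value is above 1 and the fit of Slc25a11 without high negative probes were chosen after seeing the data. No paired analysis was possible because the labels carry no replicate numbers.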
